A study of Mus musculus with 2 samples.

Results

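Natural killer (NK) cells with UMIs of granzyme A and of Ly49 receptors were described among CD45+ cells of MC38 tumors. UMIs, unique molecular identifiers, count captured RNA molecules. The cells were chosen by a rule on raw UMIs. A barcode was taken as a cell with at least 1000 UMIs and at most 25% mitochondrial UMIs. It entered the NK gate with at least 2 UMIs of Ncr1 and Klrb1c together, at most 1 UMI of Cd3d, Cd3g, Cd8a, Cd8b1 and Cd4 together, and at most 5 UMIs of C1qa, C1qb and C1qc together. Within the gate it was a Gzma and Ly49 cell when its UMIs of Gzma, Klra4, Klra8 and Klra9 together exceeded those of Gzmc, Gzmd, Gzme, Gzmf and Gzmg together. Of 8090 cells in both libraries, 576 were in the gate and 296 met the whole rule, 101 in Control and 195 in IR. The remainder of the gate were 273 cells in which the Gzmc to Gzmg side was larger (Gzmc to Gzmg cells) and a few ties.

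MC38 is a mouse colon carcinoma line, here grown in wild-type (WT) mice. The Control library came from tumors that were not irradiated, and the IR library from tumors collected 4 days after a single dose of 20 Gy. Live CD45+ cells of several pooled tumors were sorted for each library, so there was 1 library per group, no replicate and no test. The labels also give the cell type as CD45+CD11b+Ly6Chi, a phenotype of myeloid cells that does not describe the lymphocytes in these libraries. The Control library held 48593879 UMIs and the IR library 42406461 UMIs. Of the barcodes called as cells, 6 occurred in both libraries, and 0 were Gzma and Ly49 cells in both.

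NK cells are innate lymphocytes that kill target cells with perforin and granzymes and secrete interferon gamma and chemokines. Mouse NK cells carry Ly49 receptors, lectin-like proteins of the Klra gene cluster that bind class I MHC molecules, and each cell expresses its own mixture of inhibitory and activating members. Conventional NK cells depend on the transcription factor Eomes, while type 1 innate lymphoid cells (ILC1) carry the collagen-binding integrin Itga1. Type I interferons act on NK cells and raise their cytotoxicity.

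The genes of the rule are given as a description, since they chose the cells. Levels are CPM, the UMIs of a gene summed over the cells and scaled to 1000000 UMIs of those cells, and the bounds are 95% counting intervals. Gzma (ENSMUSG00000023132, chromosome 13 from 113093825 to 113100981 on the minus strand of GRCm38) encodes a trypsin-like granzyme and had 7620.3 CPM (7397 to 7849) in Control and, in IR, 8113 CPM (7974 to 8253). Klra8 (ENSMUSG00000089727, chromosome 6 from 130115226 to 130129898 on the minus strand), the activating receptor Ly49H, had a Control level of 394 CPM and an IR level of 324 CPM. Klra4 (ENSMUSG00000079852, chromosome 6 from 130043731 to 130067271 on the minus strand), the activating receptor Ly49D, had a Control level of 373 CPM and an IR level of 325 CPM, and Klra9 (ENSMUSG00000033024, chromosome 6 from 130178675 to 130193112 on the minus strand) had a Control level of 206 CPM and an IR level of 209.6 CPM. Near-identical Ly49 genes can share reads, so the split among them is uncertain. Ncr1, the activating receptor NKp46, was at 292 and 166 CPM, and Klrb1c (NK1.1) at 404 and 332 CPM, in Control and IR in this order here and below. The median margin of the last inequality was 29 UMIs in Control cells and 52 UMIs in IR cells. Within 5 UMIs of the threshold lay 10 Control and 6 IR cells on the inside, and 15 and 4 cells of the gate on the outside.

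Some of the cells carried macrophage RNA. The sum of 11 macrophage genes, among them Apoe, Lyz2, Csf1r, Adgre1 and Cd14, exceeded 10 UMIs in 7 of the 101 Control cells, a share of 6.93% (exact binomial interval 2.83% to 13.8%). It did so in 27 of the 195 IR cells, a share of 13.8% (9.33% to 19.5%). These few cells held 84.4% of the list's UMIs in Control and 97.0% in IR. Their median depth was 11450 and 14583 UMIs, against 4184.5 and 5540.5 UMIs in the others. No cell had a value between 10 and 23 in Control or between 9 and 18 in IR. The 11 genes summed to 1296 CPM in Control and 2233 CPM in IR over all Gzma and Ly49 cells. The 94 Control and 168 IR cells with at most 10 such UMIs, called low-macrophage cells here, had 233 and 91.1 CPM of the list. A neutrophil list of 11 genes summed to 25.9 and 342 CPM over all cells, with S100a9 at 0 and 100.2 CPM, and 0 of its genes reached 20 UMIs in the low-macrophage cells. Of the 11 macrophage genes, 10 reached 20 UMIs over all cells and 3 in the low-macrophage cells. In the latter, a T cell list of 17 genes summed to 1200.2 and 1117 CPM. Its genes Cd4 and Cd8b1 were at 0, but the rule limited them, so their absence shows nothing about these cells. Of the list's other rule genes, Cd3d was at 7.96 and 4.18 CPM, Cd3g at 3.98 and 7.52 CPM and Cd8a at 5.97 and 0.835 CPM. Most of the sum therefore came from genes outside the rule. In the same cells a dendritic cell list of 12 genes summed to 372 and 150.4 CPM, and a B cell list of 8 genes to 163 and 54.3 CPM. The limit of 10 UMIs was set after the data were seen, and values are given both for all cells of the rule and for the low-macrophage cells. Intervals throughout cover counting error only, not variation between tumors, sorts or libraries.

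The name of the population was checked against markers outside the rule, in low-macrophage cells, with the Gzmc to Gzmg cells under the same limit beside it (140 Control and 118 IR cells). Eomes (ENSMUSG00000032446, chromosome 9 from 118478212 to 118486132 on the plus strand) was at 310.5 and 275 CPM against 70.9 and 102 CPM. Itga2, the CD49b integrin of conventional NK cells, was at 49.8 and 29.2 CPM against 3.94 and 3.22 CPM, and Itgam (CD11b) at 57.7 and 30.1 CPM against 5.25 and 3.68 CPM. Cma1, a chymase gene, was at 45.8 and 44.3 CPM against 2.62 and 1.84 CPM. Each of these was higher in the Gzma and Ly49 cells of both libraries, as was Cd27 (65.7 and 103 CPM against 27.6 and 38.6 CPM). The ILC1 marker Itga1 went the other way, at 77.6 and 20.0 CPM against 179 and 86.8 CPM. The chemokine receptor Cxcr6 (7.96 and 4.18 CPM against 33.5 and 17.0 CPM), Tnfsf10 (TRAIL), Tmem176a and Tmem176b were also lower. Markers of late maturation were scarce, with S1pr5 at 3.98 and 5.01 CPM, Cx3cr1 at 1.99 and 2.51 CPM and Klrg1 at 31.8 and 47.6 CPM, and Klrg1 was no higher than in the Gzmc to Gzmg cells (31.8 and 47.6 CPM against 38.1 and 64.8 CPM). After each cell was thinned to 2000 UMIs, Eomes was detected in 42.4% of Control and 43.2% of IR low-macrophage cells, and in 0.379% and 0.840% of C1q macrophages, which should lack it. Median depths before thinning were 8895.5 and 11086 UMIs in those macrophages.

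**Figure D1:**
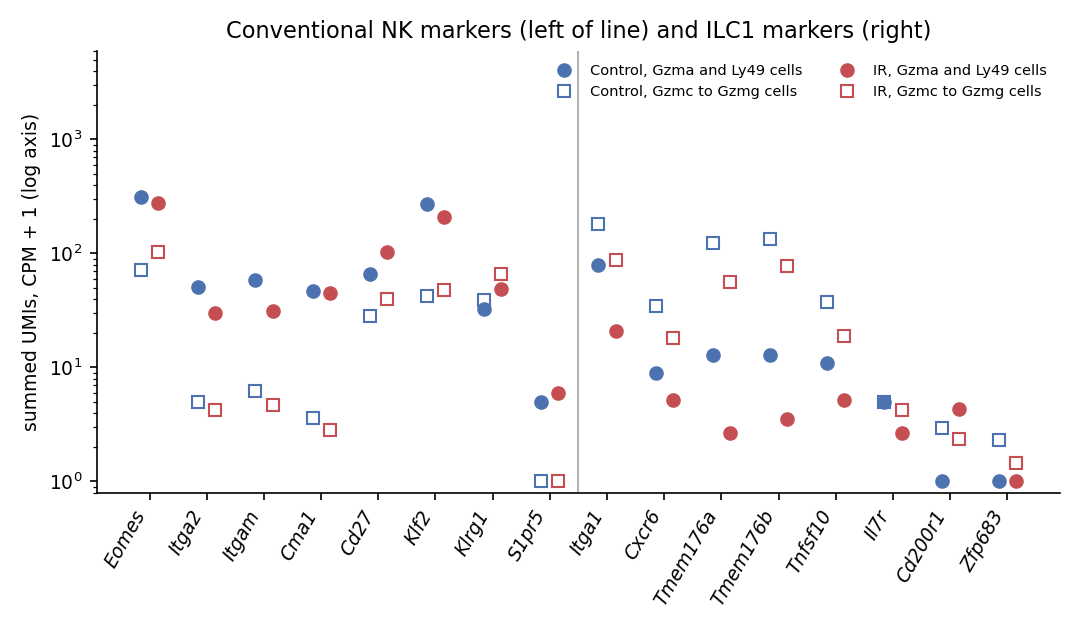
Summed CPM plus 1 (log axis) of conventional NK markers and ILC1 markers in low-macrophage Gzma and Ly49 cells and Gzmc to Gzmg cells of the Control and IR libraries, with colours and symbols as in the legend. Eomes, Itga2, Itgam and Cma1 lay higher in the Gzma and Ly49 cells of both libraries, and Itga1, Tmem176a and Tmem176b lay lower.

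The first comparison asked how large the population was in each library. Gzma and Ly49 cells made up 2.16% of the Control library (1.76% to 2.62%). In the IR library they made up 5.72% (4.96% to 6.55%). The IR to Control ratio was 2.65 (2.09 to 3.35). Low-macrophage cells alone were 2.01% and 4.93%, a ratio of 2.45 (1.91 to 3.14). The Gzmc to Gzmg cells were 3.12% and 3.72%, a ratio of 1.19 (0.945 to 1.51), and CD8 T cells 4.64% and 4.84%, a ratio of 1.04 (0.856 to 1.27). The interval of the ratio lay above 1 for the Gzma and Ly49 cells and included 1 for both other populations. Within the NK gate the share was 39.9% (33.8% to 46.2%) in Control and 60.4% (54.8% to 65.7%) in IR, a ratio of 1.51 (1.27 to 1.80). The depth of the cells moved with this result, with a median of 4865 UMIs and 1756 genes in Control and 6397 UMIs and 2036 genes in IR. With every barcode thinned to 1000 UMIs before the rule was applied, 27 Control and 33 IR cells met it, and the ratio of shares was 1.68 of all cells and 1.2 of the gate. Between 500 and 999 UMIs, the other terms of the rule were met by 1 of 364 Control barcodes and 3 of 168 IR barcodes. A share also depends on how many other cells a library holds, and the number of NK cells per tumor was not measured.

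**Figure D2:**
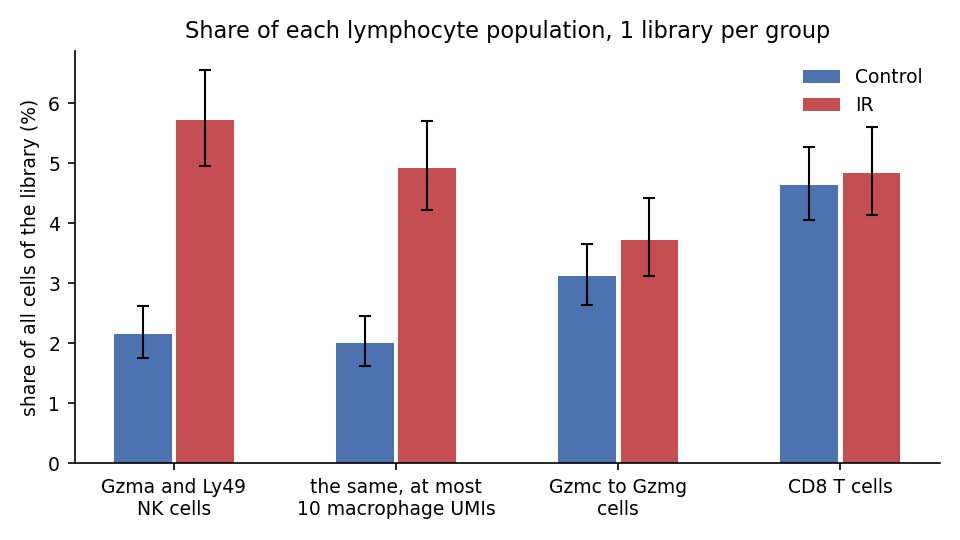
Share of all cells of each library (%), as bars from 0 with exact 95% binomial intervals, for the populations named on the axis in Control and IR. The Gzma and Ly49 cells stood at 2.16% and 5.72%, with intervals that did not overlap, while those of the Gzmc to Gzmg cells and the CD8 T cells overlapped between libraries.

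The second comparison asked which genes differed between IR and Control in these cells. Differences are log2 of IR CPM plus 10 over Control CPM plus 10, which understates the difference of low genes. Of 7482 genes with at least 20 UMIs over all Gzma and Ly49 cells, 569 (7.6%) were higher in IR past 1.5-fold and 378 (5.05%) were lower. In low-macrophage cells, 471 of 6564 genes (7.18%) were higher and 458 (6.98%) lower. The median difference over all genes was -0.0054 over all cells and -0.016 in low-macrophage cells. Below 0 were 3781 of the 7482 genes over all cells and 3387 of the 6564 in low-macrophage cells. Counts of listed genes above or below 0 are to be read beside these. Of the 12 genes named in each direction by a fixed rule of size, 4 higher genes (Ifi27l2a, Ifitm3, Ms4a4c and Zbtb32) and 8 lower genes (Cd7, Ighm, Itga1, Itgax, Nr4a3, Nrgn, Selenop and St8sia4) were named both over all cells and over low-macrophage cells.

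Interferon-stimulated genes were higher in IR as a list. Over all cells, 45 of 49 listed genes with at least 20 UMIs were above 0 and 32 were past 1.5-fold, with 0 lower past 1.5-fold and a median of 0.67. In low-macrophage cells 43 of 46 were above 0 and 26 past 1.5-fold, again with 0 lower, and the median was 0.70. The medians of the genes' counting bounds were 0.078 to 1.28 over all cells. In low-macrophage cells they were -0.048 to 1.37, which included 0. Xaf1 (ENSMUSG00000040483, chromosome 11 from 72301629 to 72313733 on the plus strand), an interferon target that promotes apoptosis, had 15.9 CPM (6.87 to 31.4) in Control and, in IR, 95.2 CPM (78.6 to 114) in low-macrophage cells, a difference of 2.02 (1.30 to 2.68). Isg15 (ENSMUSG00000035692, chromosome 4 from 156199424 to 156200818 on the minus strand), a ubiquitin-like modifier, had 53.7 CPM (35.4 to 78.2) in Control and, in IR, 183 CPM (159.5 to 209), a difference of 1.60 (1.09 to 2.12). Bst2 (tetherin, a membrane protein that retains virions) had 89.6 CPM (65.3 to 119.8) in Control and, in IR, 296 CPM (266 to 328), a difference of 1.62 (1.21 to 2.05). These genes were named by a rule that required such an interval to leave out 0, as it did for 407 higher and 499 lower of the 6564 genes. Ifitm3, a restriction factor of virus entry, was at 61.7 and 241 CPM (1.81, 1.33 to 2.30), and Ifi204, a sensor of the Ifi200 family, at 11.9 and 61.8 CPM (1.71, 0.93 to 2.37). Ly6a (Sca-1) was at 143 and 407 CPM (1.44, 1.10 to 1.80). The Ifitm, Ifi200 and Ly6 families hold near-identical copies whose reads may be split. Irf7, a transcription factor that amplifies type I interferon, was at 47.8 and 125 CPM (1.23, 0.69 to 1.78) and at 46.6 and 218 CPM (2.01) over all cells. The deubiquitinase of Isg15, Usp18, was at 7.96 and 42.6 CPM (1.55, 0.71 to 2.17), and Rtp4, an interferon-induced chaperone, at 5.97 and 44.3 CPM (1.76, 0.91 to 2.32). Ifi27l2a was at 29.9 and 129 CPM (1.80), against 111 and 641 CPM (2.43) over all cells. Free RNA was estimated from the macrophage genes that also set the low-macrophage limit, so the estimate is no upper bound. By it, free RNA could make up 23.2% of the IR level of Ifi27l2a and most of its Control level in low-macrophage cells. In IR this share was 4.52% for Isg15 and 1.61% for Xaf1. For Ifitm3 it was 45.1% of the Control and 14.4% of the IR level, and for Ifi204 22.2% and 4.61%.

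Promoters are shown for the genes named as higher that held an ISRE-like stretch (the interferon-stimulated response element), since genes of this list moved together. The letters searched were GAAANNGAAA on either strand, and overlapping matches were counted. Of the 12 genes named as higher in low-macrophage cells, 9 had a promoter in the RefSeq table of GRCm38.p6 (250 bases before to 50 after the start) and 3 held the stretch, as did 1 of 9 of the genes named as lower. Of the interferon-stimulated list, 24 of 44 genes with a promoter held it (54.5%), against 3.99% of all 27025 genes of the table and 3.44% of its 32851 promoters. The sequences are given 5′ to 3′ on the strand of the gene, with the matches in capitals. All 3 genes lie on the minus strand. The promoter of Isg15 (chr4:156200769-156201068) had 3 matches, the first at base -78 from the start, that of Bst2 (chr8:71537423-71537722) had 2, the first at base -130, and that of Ifitm3 (chr7:141010695-141010994) had 2, the first at base 3 of the transcript.
Isg15: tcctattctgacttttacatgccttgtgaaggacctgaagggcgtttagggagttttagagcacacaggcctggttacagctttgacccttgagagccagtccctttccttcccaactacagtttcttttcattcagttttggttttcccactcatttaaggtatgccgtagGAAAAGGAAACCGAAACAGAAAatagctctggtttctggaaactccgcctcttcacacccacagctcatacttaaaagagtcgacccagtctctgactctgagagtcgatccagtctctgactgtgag
Bst2: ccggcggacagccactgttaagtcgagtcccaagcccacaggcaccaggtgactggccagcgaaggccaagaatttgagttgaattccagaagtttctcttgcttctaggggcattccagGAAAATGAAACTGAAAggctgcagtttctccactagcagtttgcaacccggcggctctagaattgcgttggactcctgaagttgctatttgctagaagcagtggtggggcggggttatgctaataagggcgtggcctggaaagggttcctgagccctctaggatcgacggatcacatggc
Ifitm3: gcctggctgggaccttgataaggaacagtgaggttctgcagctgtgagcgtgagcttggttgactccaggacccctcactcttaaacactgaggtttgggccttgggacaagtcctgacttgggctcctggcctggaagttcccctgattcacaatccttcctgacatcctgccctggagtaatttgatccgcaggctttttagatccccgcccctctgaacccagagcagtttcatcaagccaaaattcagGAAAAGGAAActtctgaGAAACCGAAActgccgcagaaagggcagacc
A match describes these letters and does not show that a factor binds there.

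Interferon-stimulated UMIs were also counted per cell at a thinned depth of 2000 UMIs, without 9 Control and 6 IR cells that were shallower. The median was 3 UMIs per cell in 92 Control cells, with 0 the lowest and 34 the highest, and 6 UMIs in 189 IR cells, with 0 the lowest and 48 the highest. Of the IR cells, 70.4% were above the Control median, and the distributions overlapped. Low-macrophage cells had medians of 3 and 5 UMIs. The same list had medians of 3 and 4.5 UMIs in the Gzmc to Gzmg cells, 3 and 12 UMIs in CD8 T cells, and 5 and 20 UMIs in C1q macrophages. Empty droplets (barcodes with 10 to 100 UMIs) held 4060.1 CPM of the list in Control and 9155 CPM in IR. As estimated from the macrophage list, free RNA made up at most 13.3% of the UMIs of Control and 32.0% of those of IR over all Gzma and Ly49 cells. In low-macrophage cells the estimate was 2.38% and 1.30%. Those cells were chosen by a low count of the same list, so these values are no upper bound. The part of free RNA in the difference was not tested.

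**Figure D3:**
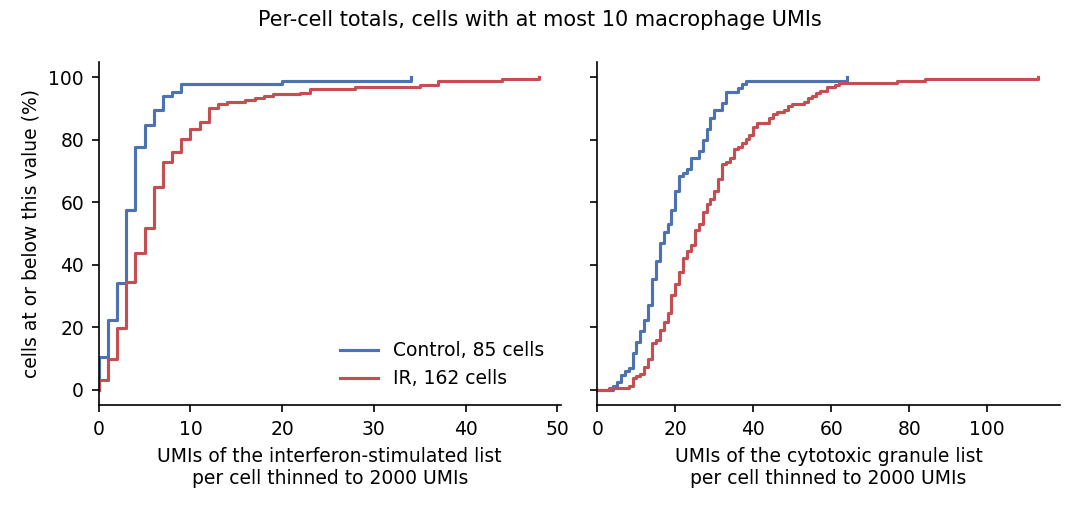
Cumulative share of low-macrophage Gzma and Ly49 cells (%) against their UMIs of the interferon-stimulated list and of the cytotoxic granule list per cell thinned to 2000 UMIs, for 85 Control and 162 IR cells. The IR curve lay to the right in both panels, with medians of 3 and 5 UMIs for the interferon list and 17 and 25 UMIs for the granule list.

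Cytotoxic granule UMIs were higher in IR as a sum, while the median over the genes was near 0. Over all cells the list summed to 8837 CPM in Control and 12143 CPM in IR, while the median difference was 0.13, with 2 of 18 genes higher past 1.5-fold and 0 lower. In low-macrophage cells the median was 0.072, again with 2 genes higher past 1.5-fold and 0 lower. Per cell at 2000 UMIs the list had medians of 17 UMIs in Control and 24 UMIs in IR over all cells, and 73.5% of IR cells were above the Control median. Gzmb (ENSMUSG00000015437, chromosome 14 from 56258838 to 56262260 on the minus strand), the granzyme that cleaves caspases, had 1353 CPM (1254 to 1459) in Control and, in IR, 4661 CPM (4539 to 4785) in low-macrophage cells, a difference of 1.78 (1.66 to 1.89). Over all cells it had a Control level of 1235 CPM and an IR level of 3863 CPM, a difference of 1.64 (1.53 to 1.75). Most of the rise of the list's sum was therefore UMIs of Gzmb, which the per-cell totals also include. The gene was detected in 65.9% of Control and 85.8% of IR low-macrophage cells at 2000 UMIs, against 1.32% and 2.73% of C1q macrophages. Prf1, the pore-forming perforin, was at 766 and 1237 CPM (0.68, 0.52 to 0.85) and over all cells at 699.7 and 993 CPM (0.50), where it did not pass 1.5-fold. Serpinb9, an inhibitor of granzyme B, was at 388 and 556 CPM (0.51, 0.28 to 0.74). The granule protein gene Nkg7 was at 3057 and 3323 CPM (0.12), and Ctsw, a cathepsin of killer lymphocytes, at 701 and 576 CPM (-0.28, -0.46 to -0.093). Ctsc, the protease that activates granzymes, was at 200.4 and 309 CPM over all cells (0.60) but at 91.6 and 72.7 CPM in low-macrophage cells (-0.30, -0.77 to 0.19). The difference of Gzmb was 1.31 in low-macrophage Gzmc to Gzmg cells and 1.16 in CD8 T cells. Free RNA of the droplets could make up 0.438% and 0.400% of its level in low-macrophage cells, by the same estimate, which is no upper bound.

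Ly49 receptor genes outside the rule were lower or near even. Of 6 genes with at least 20 UMIs over all cells, 1 was above 0 and 5 below, 2 of them past 1.5-fold, with a median of -0.36. In low-macrophage cells 2 of 5 genes were above 0 and the median was -0.27. Klra7, the inhibitory receptor Ly49G, was the most abundant, with a Control level of 605 CPM and an IR level of 499 CPM in low-macrophage cells (-0.27, -0.47 to -0.073). Klra3 (Ly49C) was at 129 and 147 CPM (0.17, -0.22 to 0.57) and Klra1 (Ly49A) at 87.6 and 97.7 CPM (0.14, -0.32 to 0.62), both with intervals that included 0. Klra5 was at 31.8 and 11.7 CPM (-0.95, -1.63 to -0.20) and Klra6 at 23.9 and 7.52 CPM (-0.95, -1.63 to -0.17). The rule genes Klra4, Klra8 and Klra9 were among 9 Ly49 genes counted per cell at 2000 UMIs, so these shares are a description only. Of these 9, 17.4% of Control and 15.3% of IR cells had a UMI of none, 26.1% and 28.6% of 1, 31.5% and 28.6% of 2, and 18.5% and 21.2% of 3.

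Among the other NK receptors, 17 of 25 genes were below 0 over all cells and 17 of 23 in low-macrophage cells, where 1 was higher and 4 lower past 1.5-fold. The medians of the genes' counting bounds included 0, at -0.55 to 0.079 over all cells and -0.58 to 0.16 in low-macrophage cells. Cd7 (ENSMUSG00000025163, chromosome 11 from 121036747 to 121039418 on the minus strand), an immunoglobulin-family receptor, had 229 CPM (189 to 275) in Control and, in IR, 85.2 CPM (69.5 to 103) in low-macrophage cells, a difference of -1.33 (-1.69 to -0.96). Cd226, the activating receptor DNAM-1, was at 33.8 and 10.0 CPM (-1.13, -1.79 to -0.39), and Cd96, which shares a ligand with it, at 73.6 and 39.3 CPM (-0.76, -1.31 to -0.21). Cd160 was at 37.8 and 15.0 CPM (-0.93, -1.60 to -0.22). The inhibitory receptor Lilrb4a was higher, at 43.8 and 98.6 CPM (1.01, 0.45 to 1.59). The lectin receptors Klrd1 (CD94) and Klrk1 (NKG2D) were nearly even, at 937 and 956 CPM and at 402 and 390.1 CPM. Of the signalling adaptors, Fcer1g was at 2880.0 and 2875 CPM, Tyrobp (DAP12) at 2860.1 and 2666 CPM (-0.10, -0.19 to -0.011) and Hcst (DAP10) at 479.7 and 372 CPM (-0.36, -0.58 to -0.13). The difference of Cd7 was -2.52 in low-macrophage Gzmc to Gzmg cells and -0.72 in CD8 T cells.

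Of 26 transcription factor genes, 10 were above 0 and 16 below over all cells, with a median of -0.23. In low-macrophage cells the median over 25 genes was -0.17, with 1 higher and 3 lower past 1.5-fold. Median counting bounds included 0, at -0.61 to 0.12 over all cells and -0.61 to 0.22 in low-macrophage cells. Eomes was at 310.5 and 275 CPM (-0.17, -0.44 to 0.10) and Tbx21 (T-bet) at 115 and 86.0 CPM (-0.39, -0.82 to 0.06), both with intervals that included 0. Tcf7, the TCF1 gene of early NK cells, was at 121 and 61.0 CPM (-0.89, -1.34 to -0.43), and Ets1, a factor of NK cell development, at 344 and 232 CPM (-0.55, -0.82 to -0.28). Ikzf2 (Helios) was higher, at 15.9 and 42.6 CPM (1.02, 0.26 to 1.72). Outside the list, the zinc finger gene Zbtb32 (ENSMUSG00000006310, chromosome 7 from 30589681 to 30598909 on the minus strand) was the named gene with the largest difference in low-macrophage cells. It had 4 UMIs in Control and 94 UMIs in IR, or 7.96 CPM (2.17 to 20.4) in Control and, in IR, 78.5 CPM (63.5 to 96.1), a difference of 2.30 (1.49 to 2.90). Without thinning, 3.19% of Control and 25.6% of IR low-macrophage cells had a UMI of it, and at 2000 UMIs 2.35% and 7.41%. The unthinned share was 1.82% and 4.09% of C1q macrophages. The difference of Zbtb32 was 2.05 in low-macrophage Gzmc to Gzmg cells and 1.11 in CD8 T cells.

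**Figure D4:**
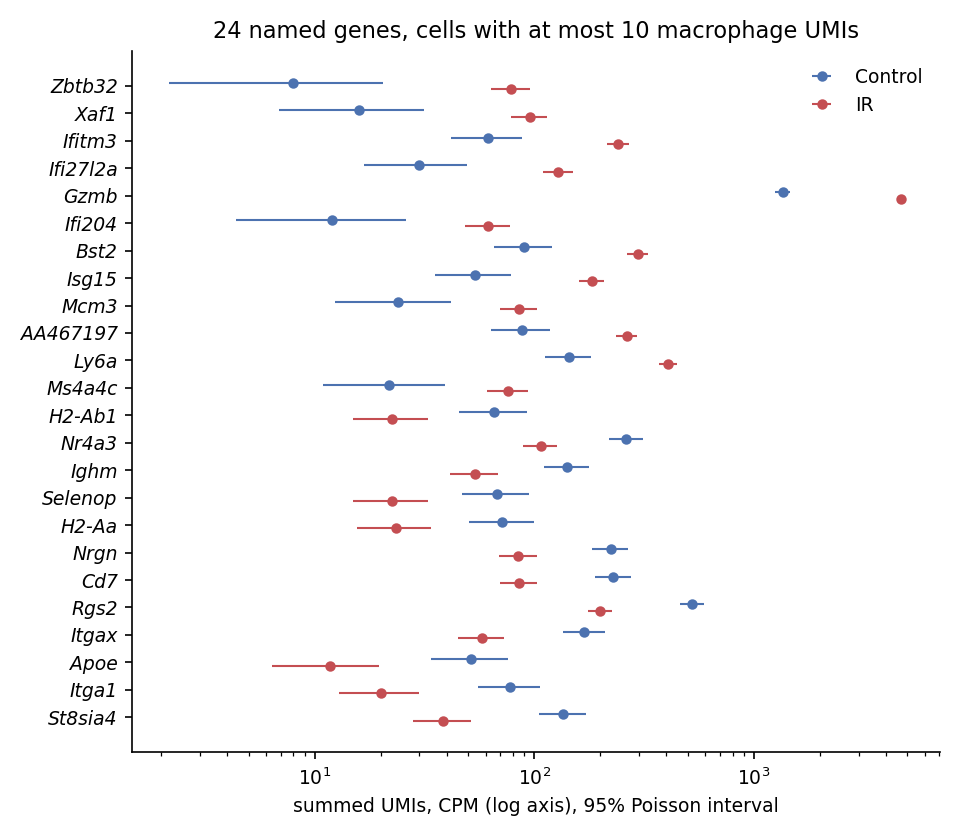
Summed CPM (log axis) with 95% Poisson intervals of the 24 genes named from low-macrophage Gzma and Ly49 cells, in Control and IR. The naming rule required an interval of the ratio without 1, so the intervals of each gene lie apart by choice, from Zbtb32 at 7.96 and 78.5 CPM to St8sia4 at 135 and 38.4 CPM.

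The genes of maturation and tissue residence were mostly below 0, in 16 of 21 over all cells and 15 of 19 in low-macrophage cells. Among all genes, 3781 of 7482 and 3387 of 6564 were below 0. List medians were -0.24 and -0.20. The medians of the genes' counting bounds included 0, at -0.75 to 0.18 over all cells and -0.64 to 0.027 in low-macrophage cells. Itga1 (ENSMUSG00000042284, chromosome 13 from 114953096 to 115101964 on the minus strand) had 39 UMIs in Control and 24 UMIs in IR in low-macrophage cells, or 77.6 and 20.0 CPM, a difference of -1.54 (-2.11 to -0.95). Rgs2, a regulator of G protein signalling, was at 523 and 199.7 CPM (-1.35, -1.60 to -1.10). Ltb (lymphotoxin beta) was at 131 and 56.8 CPM (-1.08, -1.53 to -0.62) and the adhesion gene Emb at 585 and 344 CPM (-0.75, -0.96 to -0.53). Itgam was at 57.7 and 30.1 CPM in low-macrophage cells (-0.76, -1.35 to -0.15) but at 112 and 102 CPM over all cells (-0.13). Cd27, a receptor of less mature NK cells, was higher, at 65.7 and 103 CPM (0.58, 0.073 to 1.09), as was Ly6c2, a surface protein of monocytes and of NK cell subsets, at 79.6 and 211 CPM (1.30, 0.86 to 1.76). Other genes named as lower were St8sia4, a polysialyltransferase, at 135 and 38.4 CPM (-1.59, -2.06 to -1.10), Itgax, the CD11c integrin, at 169 and 57.6 CPM (-1.41, -1.83 to -0.98), and Nrgn, a calmodulin-binding protein, at 223 and 84.4 CPM (-1.30, -1.67 to -0.93).

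Among secreted products, Ccl5 (RANTES, ENSMUSG00000035042, chromosome 11 from 83525778 to 83530518 on the minus strand) had 5309 CPM (5123 to 5499.9) in Control and, in IR, 2695 CPM (2616 to 2777) over all cells, a difference of -0.98 (-1.04 to -0.91). In low-macrophage cells it had a Control level of 5507 CPM and an IR level of 3202 CPM, a difference of -0.78 (-0.85 to -0.71). Xcl1, which attracts cross-presenting dendritic cells, was at 993 and 506 CPM over all cells (-0.96) and at 1093 and 633 CPM in low-macrophage cells (-0.78, -0.94 to -0.62). Both chemokines were lower in IR in both sets of cells. Ccl3 was at 175 and 188 CPM (0.10, -0.25 to 0.45) and Ccl4 at 543 and 508 CPM (-0.10, -0.30 to 0.11) in low-macrophage cells, both with intervals that included 0. Ifng, the interferon gamma gene, was at 141 and 199 CPM (0.46, 0.10 to 0.84). Tnf was at 10.4 and 90.3 CPM over all cells (2.30) but at 1.99 and 9.19 CPM in low-macrophage cells, where 1 Control UMI was counted. The chemokine receptor gene Ccr2 was lower, at 358 and 231 CPM (-0.61, -0.88 to -0.34). Among cytokine receptors, Il12rb1, a subunit of the interleukin 12 receptor, was higher, at 19.9 and 61.8 CPM (1.26, 0.55 to 1.94), and Il2rb, which signals for interleukins 2 and 15, was at 1493 and 1285 CPM (-0.21, -0.34 to -0.088).

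Several of the 12 genes named as higher over all cells had smaller differences once the cells with macrophage RNA were left out. Ccl2, a monocyte chemoattractant, was at 41.5 and 438 CPM over all cells (3.12) and at 19.9 and 36.8 CPM in low-macrophage cells (0.64). Thbs1 (thrombospondin) was at 55.3 and 341 CPM (2.43) and then at 1.99 and 17.5 CPM (1.20). Differences of Ccl7 (2.44 and 0.18), Slfn4 (2.31 and 0.55), Osm (1.96 and 0.60) and Ier3 (1.84 and 1.07) were smaller too. Among the genes named as lower in low-macrophage cells, Apoe and the class II MHC genes H2-Aa and H2-Ab1 were near the level that free RNA could give, which was 80.4%, 100% and 84.8% of their Control CPM. For Selenop and Ighm that share was 8.34% and 8.78%, and for Itga1 0.569%.

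Cycling cells were few. At least 3 UMIs of 11 cycling genes were found at 2000 UMIs in 5 of 92 Control cells, which is 5.43% (1.79% to 12.2%). The share in IR was 8 of 189, which is 4.23% (1.84% to 8.17%). The ratio was 0.78 (0.26 to 2.31), and over 20 other draws of the thinning it ran from 0.42 to 0.78, with a median of 0.57. With at least 2 UMIs the shares were 13.0% and 6.88%, a ratio of 0.53 (0.25 to 1.11). Without thinning the shares were 14.9% and 20.5%. The thinned cells were too few and too shallow to detect a difference. The longer cycling list went both ways in low-macrophage cells, with 16 genes above 0 and 15 below. Those with the largest positive differences were genes of the replicative helicase. Mcm3 was at 23.9 and 85.2 CPM (1.49, 0.82 to 2.14), Mcm6 at 51.7 and 134 CPM (1.22, 0.69 to 1.76), Mcm7 at 27.9 and 74.4 CPM (1.16, 0.50 to 1.80) and Mcm5 at 45.8 and 90.2 CPM (0.85, 0.28 to 1.42). Among those below 0, Ube2c was at 49.8 and 16.7 CPM (-1.16, -1.79 to -0.49), Birc5 at 67.7 and 32.6 CPM (-0.87, -1.43 to -0.28) and Mki67 at 61.7 and 32.6 CPM (-0.75, -1.33 to -0.16). Over the list, 5 genes were higher and 9 lower past 1.5-fold both over all cells and in low-macrophage cells, and the median was -0.096 over all cells and 0.029 in low-macrophage cells. The difference of Mcm3 was 0.12 in low-macrophage Gzmc to Gzmg cells and 0.29 in CD8 T cells.

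Glycolysis and hypoxia genes had a median of 0.32 over all cells and 0.34 in low-macrophage cells. The medians of their counting bounds included 0, at -0.17 to 0.66 and -0.46 to 0.66. In low-macrophage cells 15 of 23 genes were above 0 and 8 below, and 1 passed 1.5-fold. There the glycolytic enzyme genes Gapdh (1582 and 2312 CPM, 0.54), Ldha (705 and 1049 CPM, 0.57) and Aldoa (545 and 886 CPM, 0.69) were higher. The list median was 0.23 in low-macrophage Gzmc to Gzmg cells and 0.41 in CD8 T cells. The interferon-gamma GTPases had a median of 0.36 over all cells, with 4 of 13 genes higher past 1.5-fold, and of 0.56 in low-macrophage cells, with 5 of 10. Igtp, a member of this family, was at 19.9 and 46.8 CPM (0.93, 0.20 to 1.62) there. The medians of the family's counting bounds included 0, at -0.36 to 0.81 over all cells and -0.083 to 1.26 in low-macrophage cells. Class I MHC presentation genes had medians of 0.086 and 0.13, with B2m at 3405 and 3513 CPM in low-macrophage cells and Tap1, the peptide transporter, at 95.5 and 157 CPM (0.66, 0.24 to 1.10). Targets of p53 had medians of 0.057 and 0.067, with Cdkn1a, the cell cycle inhibitor p21, at 97.5 and 118 CPM (0.25). Medians were 0.25 and 0.28 for heat shock genes, -0.078 and -0.083 for cytokine receptors and signalling, -0.13 and -0.11 for chemokine receptors, 0.27 and 0.15 for chemokines and cytokines, 0.031 and -0.19 for apoptosis regulators, and -0.011 and -0.093 for NF-kB genes. Ythdf2 (ENSMUSG00000040025, chromosome 4 from 132184912 to 132212303 on the minus strand), a reader of the RNA modification m6A, was at 43.2 and 38.3 CPM over all cells (-0.14, -0.70 to 0.44). In the m6A machinery 0 of 11 genes passed 1.5-fold.

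Immediate-early genes gave a median of 0.087 over all cells, with median counting bounds of -0.22 and 0.35. When the cells with macrophage RNA were left out, the median was -0.32, with bounds of -0.57 and 0.044. The sign differed, but both pairs of bounds included 0. In low-macrophage cells 20 of 28 genes were below 0, 6 of them lower past 1.5-fold. Nr4a3, an orphan nuclear receptor induced by receptor signalling, was at 263 and 107 CPM (-1.22, -1.56 to -0.88), Nr4a2 at 539 and 282 CPM (-0.91, -1.14 to -0.68) and Fosb at 271 and 140.3 CPM (-0.90, -1.22 to -0.58). Fos was at 223 and 127 CPM (-0.77) there, but at 235 and 291 CPM (0.30) over all cells. Nr4a3 was lower over all cells as well, at 259 and 106 CPM (-1.22).

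**Figure D5:**
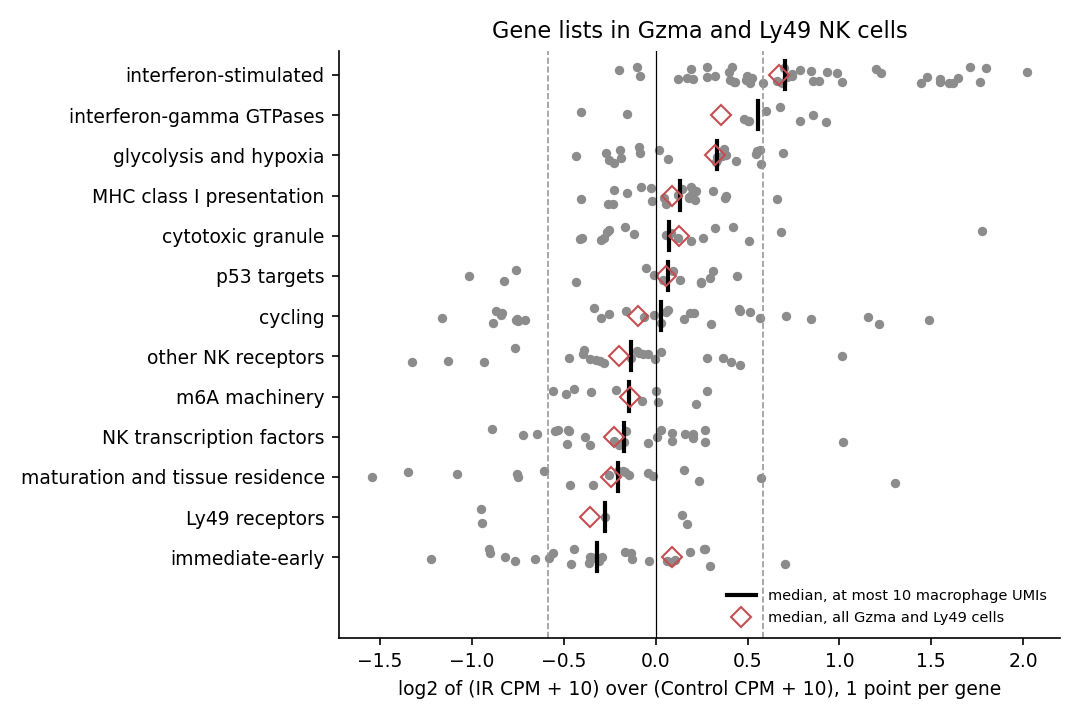
Log2 of IR CPM plus 10 over Control CPM plus 10 for single genes of the lists, with the medians over low-macrophage Gzma and Ly49 cells and over all Gzma and Ly49 cells as in the legend. Interferon-stimulated genes had medians of 0.70 and 0.67, and the medians of immediate-early genes (-0.32 and 0.087) lay on either side of 0.

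The last comparison set the Gzma and Ly49 cells against the Gzmc to Gzmg cells within each library. Both populations were split by UMIs of the same cells, so the values describe what went with the rule and are no test of it. In low-macrophage cells, 68 of 7602 genes were higher past 2-fold in both libraries and 54 were lower. Ccl5 differed most, at 5507 and 3202 CPM against 44.0 and 150.2 CPM. The other chemokines named as higher were Ccl4, at 543 and 508 CPM against 67.6 and 114 CPM, and Ccl3. Further genes named as higher were Cxcr4, a chemokine receptor, at 105 and 107 CPM against 11.2 and 8.27 CPM, Klf2, a factor of lymphocyte egress, at 271 and 209 CPM against 41.3 and 46.9 CPM, Klra7, at 605 and 499 CPM against 126 and 178 CPM, Adgre5, Pde2a, Itgam and Hes1. Among the genes named as lower were Ifitm1, at 73.6 and 43.4 CPM against 745 and 953 CPM, and Ifitm2, at 318 and 197 CPM against 1825 and 2174 CPM, while Ifitm3, of the same family, was named as higher in IR within the Gzma and Ly49 cells. Pdcd1, the PD-1 gene, was at 5.97 and 0 CPM against 74.2 and 45.0 CPM, and S100a4 at 384 and 212 CPM against 1513 and 983 CPM. The others named as lower were Sema6d, Tmem176a, Tmem176b, Igflr1, Cdh1 and Myo10.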

How the data were processed

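Each library had 1 unfiltered 10x Genomics matrix of UMI counts (genes by barcodes), which the authors deposited, made with Cell Ranger (6.0.1 per the submitters' processing notes and the methods, 4 in the matrix header) on mm10. The study filtered cells and removed doublets with DoubletFinder, which was not repeated. The cells, gene lists and comparisons were chosen with earlier results of these data known, and genes of the rule support nothing. UMIs were summed per library and population and scaled to CPM (Python 3.11.15). Shares have exact Clopper-Pearson, CPM exact Poisson and CPM ratios exact conditional 95% intervals, and ratios of shares log-method intervals. No test was run. A gene counted with at least 20 UMIs, and a call was 1.5-fold with 10 CPM added. Named genes had at least 50 CPM in 1 library, a UMI in at least 10% of the cells of the higher library and an interval without 1, and were the 12 with the largest ratio in each direction (10 against the Gzmc to Gzmg cells, by the smaller ratio of both libraries), leaving out mitochondrial, ribosomal, Y-linked, Xist, rule and unnamed genes. The same rule was run over low-macrophage cells, an alternative chosen after the data were seen. CD8 T cells had at least 2 UMIs of Cd3d, Cd3e and Cd3g and at least 1 of Cd8a and Cd8b1, with Cd4 at 0, at most 1 NK gene UMI and at most 5 C1q UMIs, and C1q macrophages at least 10 C1q UMIs with neither Cd3 nor NK gene UMIs. Thinning kept 2000 UMIs per cell and left out shallower cells. Doublets stayed in. Since the automatic threshold of Scrublet (scanpy 1.11.5) marked almost no cell, an alternative left out the top 6% by score, 281 cells of Control and 205 of IR. Free RNA was estimated from empty droplets and the macrophage list. This is an upper estimate over all cells, but not in low-macrophage cells, which were chosen by that list. Alternatives covered the gate, depth, doublets, pseudocount, filter, cell weight, free RNA and TMM scaling (edgeR 4.0.16). Positions of genes came from GENCODE vM21 (GRCm38). The functions were tested on simulated data. Some genes of the lists are not reported here by name.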

Additional observations from a re-analysis of the deposited data

Results flagged for a closer look

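Klra5, an Ly49 gene, Ccl5 and Hspa1a, a heat shock gene, are given here because their difference between IR and Control had opposite signs in the Gzma and Ly49 cells and in the Gzmc to Gzmg cells, both with at most 10 macrophage UMIs. Klra5 was at 31.8 CPM in Control and 11.7 CPM in IR (-0.95, -1.63 to -0.20) in the Gzma and Ly49 cells. It was at 38.7 and 64.3 CPM (0.61, 0.24 to 0.98) in the Gzmc to Gzmg cells. Ccl5 was at 5507 and 3202 CPM (-0.78, -0.85 to -0.71) against 44.0 and 150.2 CPM (1.57, 1.24 to 1.90). Empty droplets held 864 CPM of Ccl5 in Control and 1422 CPM in IR. The part of free RNA in the Ccl5 level of the Gzmc to Gzmg cells was not tested. Hspa1a was at 17.9 and 3.34 CPM (-1.06) against 5.25 and 15.2 CPM (0.72). With 1 library per group, the difference between the populations was not tested.

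Empty droplets, which were used only to estimate free RNA, held more RNA of Gzma, Gzmb and the interferon-stimulated list per UMI in IR than in Control. Gzma was at 391 CPM in Control and 1414 CPM in IR, Gzmb at 249 and 1430.0 CPM, and the interferon-stimulated list at 4060.1 and 9155 CPM. The part of this free RNA in the differences of the cells was not tested.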

How the results depend on the processing

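No paired analysis was possible because each group held 1 library. The share of Gzma and Ly49 cells among all cells had an IR to Control ratio of 3.997 when no C1q UMI was allowed. With the gate applied to barcodes thinned to 1000 UMIs (27 and 33 cells), this ratio was 1.677, that of the share of the NK gate 1.2, and 270 genes were higher past 1.5-fold. Under the same thinning the list medians were -0.90 for chemokine receptors, -0.54 for immediate-early genes, -1.05 for the m6A machinery and -0.93 for NF-kB genes. A pseudocount of 1 CPM gave 1005 genes higher and 762 lower, and subtracting free RNA gave 614 lower. Leaving out cells with macrophage UMIs gave an immediate-early median of -0.25 (at most 1 UMI) and -0.32 (at most 10 UMIs, set after the data were seen), and a cycling median of 0.44 at most 1 UMI. Of the values of named genes, 456 stayed within their bounds and 113 moved outside them. A turn in direction was not counted for genes whose interval over all cells included 0. The other 7 values, of genes whose interval left out 0, turned in direction. With the thinned gate these were Ccl2 (-0.47), Ccl7 (-0.91), Rnf166 (0.21), AA467197 (-2.67) and Ly6a (-0.44). Ccl7 was at -0.077 with at most 1 macrophage UMI, and AA467197 at -0.29 with free RNA subtracted. The cause was not tested, except that the thinned gate holds far fewer cells and UMIs. The other 382 values for shares, counts and list medians stayed within their spread or within 1.5 times, and TMM scaling shifted the log2 differences by 0.013.

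Each library pooled tumors and has no replicate, so variation between mice, sorts and runs is not in any interval. The cells were chosen on UMIs, so depth and free RNA bear on who was chosen. Low-macrophage cells held 502431 UMIs in Control and 1197036 in IR, which limits precision for genes under about 20 CPM.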
